A study of Mus musculus with 8 samples.

Results

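Serglycin and the enzymes that build heparin on it were followed at the RNA level in peritoneal mast cells (PMCs) of the mouse. The 10 genes are Srgn, Ext1, Ext2, Extl3, Ndst1, Ndst2, Glce, Hs2st1, Hs6st1 and Hs3st1, taken by name from the 55359 genes of the deposited count table. All 10 passed the filter on low counts. The 8 libraries came from untreated wild-type PMCs of the strain C57BL/6x129/Sv. Of these, 6 were primary cultures, 3 of female and 3 of male mice, each labelled a biological replicate. The other libraries were 1 of PMC-303 and 1 of PMC-306, lines that arose spontaneously in ageing PMC cultures. A line is a single culture, and both lines were kept with less serum and less stem cell factor (SCF) than the primary cultures and with the same interleukin 3, so that medium and transformation cannot be told apart in these libraries. For PMC-306 the study reports that more serum and SCF left the mRNA of Cpa3, Cma1, Mcpt4 and Tpsab1 unchanged. None of the 10 genes was among those it names for that control.

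Heparin is a heavily sulfated form of heparan sulfate that mast cells make and that their granules store. Its chains grow on serglycin, a small core protein with a run of serine-glycine pairs, in which the serines carry the sugar chains. An exostosin complex lengthens the chain, an N-deacetylase/N-sulfotransferase removes acetyl groups and adds sulfate, an epimerase turns glucuronic into iduronic acid, and O-sulfotransferases add the remaining sulfate. In connective tissue mast cells, serglycin and the N-sulfotransferase encoded by Ndst2 are known to be needed to store histamine and the positively charged proteases. The labels call the cells peritoneal mast cells, and all 8 mast cell markers checked (Kit, Fcer1a, Ms4a2, Cpa3, Cma1, Hdc, Gata2 and Mitf) were detected at 1 CPM (count per 1000000 counts of a library) or more in every library.

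The attachment region of serglycin is shown here because it carries the chains that the products of the other 9 genes build and modify. It lies in exon 3 of 3 of transcript Srgn-201, on chromosome 10 of GRCm39 from 62330768 to 62330845 on the minus strand. Capitals mark 10 successive codon pairs of serine and glycine, which are codons 90 to 109 of a coding sequence of 152 codons, stop codon included.
Srgn-201, exon 3: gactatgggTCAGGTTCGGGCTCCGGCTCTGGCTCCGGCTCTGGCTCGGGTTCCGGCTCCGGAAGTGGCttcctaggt
No other serine-glycine codon pair was found in this coding sequence.

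The libraries held between 15918758 and 24180226 estimated counts. Values are CPM whose library sizes carry a TMM factor (from trimmed means of log ratios between libraries), and levels of different genes are compared as TPM, transcripts per 1000000, which take transcript length into account. In bulk RNA, fewer cells of a type and less RNA per cell cannot be told apart. Markers of other cells were low apart from a few genes. The highest was Itga2b, listed for megakaryocytes, with values over all libraries from 1097 (PMC-306) to 1960 CPM (female culture 2). Cd200r3, listed for basophils, ranged from 266 (PMC-303) to 575 CPM (male culture 2). Summed over 6 macrophage markers the primary cultures had between 5.53 and 64.5 CPM, PMC-303 had 2.43 CPM and PMC-306 had 427 CPM, of which Adgre1 made up 426 CPM, while C1qb was at 0 in every library. The mast cell markers summed to 39076 CPM in PMC-303 and to 35986 CPM in PMC-306, under the primary range from 40048 to 65197 CPM. Cpa3, the most abundant of them, lay within its primary range in both lines, and the markers did not move together. By limma, 0 of the 8 were called higher in the lines and 2 lower. These were Kit (log2 difference -0.88, adjusted p = 0.000886 by limma) and Fcer1a (-1.36, adjusted p = 0.00310 by limma). Over all genes tested, 18.3% were called higher and 15.5% lower. Of the 8 markers, 1 was above, 5 within and 2 below their primary range in PMC-303. In PMC-306, 2 were above, 2 within and 4 below it. Of all genes tested, 33.4% were above and 30.0% below the range in PMC-303, and 32.0% and 32.3% in PMC-306. The part of these differences in the results was not tested.

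Per transcript length, Srgn was by far the most abundant of the 10 transcripts in primary PMCs and Ndst2 the most abundant enzyme. Srgn had a level of 2525 ± 507 TPM (SD, n = 6), rank 29 of all 55359 genes. Ndst2 followed with 185 ± 34.8 TPM (SD, n = 6), and neither range overlapped the next one. Below them came Hs6st1 with 65.3 ± 11.5 TPM and Hs3st1 with 51.9 ± 16.0 TPM (SD, n = 6 for both), whose ranges overlapped and of which Hs6st1 was higher in 4 of 6 cultures. Ndst1 (26.8 ± 3.04 TPM) and Ext2 (22.9 ± 2.56 TPM) overlapped in the same way, again with the first higher in 4 of 6 cultures. Hs2st1 had a level of 14.8 ± 2.53 TPM and Extl3 of 5.80 ± 1.56 TPM, each apart from its neighbours in the order. Glce (2.63 ± 0.766 TPM) and Ext1 (2.29 ± 0.719 TPM) were lowest and did not differ beyond their spread. The chain-lengthening partners thus stood apart, with Ext2 at place 6 and Ext1 at place 10 of this order. In the lines the first 2 places were the same, whereas Hs3st1 held place 4 in the primary cultures, 3 in PMC-303 and 7 in PMC-306.

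**Figure D1:**
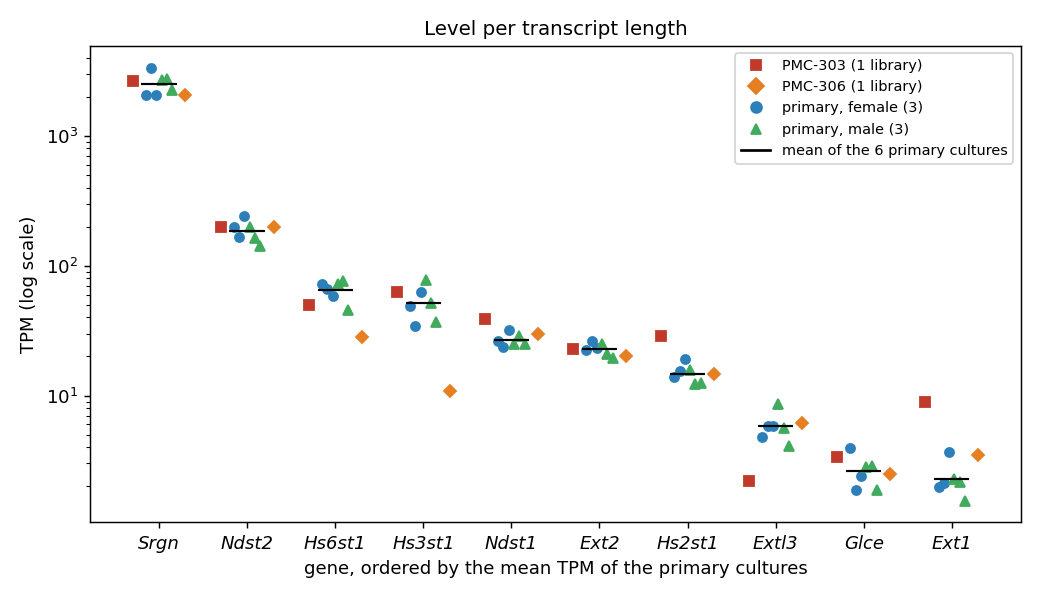
TPM on a log scale for the 10 genes, ordered by the mean of the 6 primary cultures (black line), with each library as a point. Srgn lies at 2525 TPM and Ndst2 at 185 TPM on average, and the point of Hs3st1 in PMC-306, at 10.8 TPM, lies under all primary cultures.

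The core protein gene Srgn (ENSMUSG00000020077.15, chromosome 10, 62329029 to 62363238, minus strand) was expressed at a similar level in PMC-303 and the primary cultures and at the lower edge in PMC-306. PMC-303 had 1949 CPM of it and PMC-306 had 1468 CPM. In the primary cultures the lowest value was 1512 CPM, the median 2045 CPM and the highest 2598 CPM. PMC-303 lay inside this range and PMC-306 just under its lowest culture, female culture 3. Both lines together differed from the primary cultures by -0.22 on the log2 scale (SE 0.217, 95% interval -0.72 to 0.27, adjusted p = 0.466 by limma). In TPM, PMC-306 with 2075 TPM was within the primary range, which began at 2050 TPM. Between 91.3% and 96.5% of the Srgn counts of a library were assigned to Srgn-201, the transcript printed above. Female culture 2, which had the highest Srgn value, also had the highest sum of mast cell markers (65197 CPM). Of the primary cultures it had the highest sum of macrophage markers too (64.5 CPM), and the part of either in the Srgn value was not tested.

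The N-deacetylase/N-sulfotransferases Ndst1 and Ndst2 act at the same step, Ndst1 in most tissues and Ndst2 mainly in mast cells. Ndst2 (ENSMUSG00000039308.7, chromosome 14, 20773794 to 20784737, minus strand) was within the primary range in both lines, at 494 CPM (PMC-303) and 460 CPM (PMC-306). The primary cultures had a lowest value of 389, a median of 465 and a highest value of 571 CPM. The log2 difference of the lines was 0.04 (SE 0.141, 95% interval -0.28 to 0.36, adjusted p = 0.853 by limma), an interval that still holds changes of this size in either direction. Ndst1 (ENSMUSG00000054008.10, chromosome 18, 60817566 to 60881766, minus strand) had 168 CPM in PMC-303, above all primary cultures, and 136 CPM in PMC-306, within them. Their lowest value was 112, their median 125 and their highest 141 CPM. The log2 difference of the lines was 0.27 (SE 0.111) and did not pass the threshold (adjusted p = 0.0977 by limma). It passed when libraries were scaled by their totals alone (0.38, adjusted p = 0.0405 by limma). This scaling moved the median of all genes to 0.10. Without PMC-306 the difference of Ndst1 was 0.42. Such a fit takes the remaining line to vary like the primary cultures, so only log2 differences of fits without a line are given. Ndst1 overlaps Rps14 on the opposite strand over 1615 bases, and the strand setting of the counting is not given in the sources used here. Of the 10 genes, Ndst2, Extl3 and Hs3st1 overlap no annotated gene of the opposite strand, while Srgn, Ext1, Glce and Hs6st1 overlap long noncoding RNA genes there and Hs2st1 overlaps such genes and Selenof (464 bases).

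Within each library, Ndst2 exceeded Ndst1. The ratio of their CPM was 2.94 in PMC-303 and 3.38 in PMC-306. It was 3.91, 3.70 and 4.06 in female cultures 1 to 3 and 4.12, 3.19 and 3.26 in male cultures 1 to 3, a mean of 3.71 ± 0.401 (SD, n = 6). PMC-303 lay under the lowest primary culture and PMC-306 inside the primary range. The mean log2 ratio was 1.66 in the lines and 1.88 in the primary cultures, a difference of -0.23, which an exact permutation test over 28 regroupings did not separate (two-sided p = 0.214, where 0.0714 is the smallest p this design allows). Per length, Ndst2 exceeded Ndst1 by 6.91 ± 1.03 times in TPM (SD, n = 6) in the primary cultures, by 5.06 times in PMC-303 and by 6.70 times in PMC-306. Most Ndst2 counts were assigned to 1 of 7 transcripts, which took 69.9% of them in PMC-303, 66.1% in PMC-306 and 54.9% to 63.9% in the primary cultures. This division among overlapping transcripts is an estimate and was not tested.

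The exostosin family starts and lengthens the chain, and its genes did not all move in the same direction. Extl3, which adds the first N-acetylglucosamine and so commits the linker to heparan sulfate, was lower in the lines, Ext1 was higher, and Ext2, the partner of Ext1 in the polymerase, was slightly below the primary cultures in both lines without passing the threshold. Over all 14529 genes tested, 18.3% were called higher and 15.5% lower in the lines, so that 1 higher and 2 lower of these 10 genes is a share near that of all genes. The median log2 difference was -0.10 over the 10 genes and -0.01 over all genes.

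Extl3 (ENSMUSG00000021978.10, chromosome 14, 65287059 to 65387357, minus strand) was at 11.8 CPM in PMC-303 and at 22.0 CPM in PMC-306. It had a lowest value of 27.6, a median of 30.4 and a highest value of 33.9 CPM in the primary cultures, the narrowest spread of the 10 genes with a coefficient of variation of 7.60%. Both lines lay below every primary culture, and PMC-303 lay lower. The log2 difference was -0.91 (SE 0.201, adjusted p = 0.00916 by limma), and it was -0.46 without PMC-303 and -1.35 without PMC-306. In TPM the call was lost (-0.61, adjusted p = 0.274 by limma), and PMC-306, at 6.09 TPM, lay inside the primary range from 4.07 to 8.66 TPM.

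Ext1 (ENSMUSG00000061731.10, chromosome 15, 52927434 to 53209602, minus strand) was at 26.2 CPM in PMC-303 and at 12.96 CPM in PMC-306. In the primary cultures it had a lowest value of 6.02, a median of 8.38 and a highest value of 14.9 CPM, the widest spread of the 10 genes (coefficient of variation 33.9%). PMC-303 lay above every primary culture, while PMC-306 overlapped them, since female culture 3 alone stood at 14.9 CPM. The log2 difference of 1.08 (SE 0.347) passed the threshold narrowly (adjusted p = 0.0416 by limma). It no longer did so when any 1 of the primary cultures other than female culture 3 was left out (adjusted p up to 0.0723 by limma). Without PMC-303 the difference was 0.58.

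Ext2 (ENSMUSG00000027198.17, chromosome 2, 93491373 to 93653003, minus strand) was at 46.1 CPM in PMC-303 and at 42.1 CPM in PMC-306, against a lowest value of 47.3, a median of 52.6 and a highest value of 58.1 CPM in the primary cultures. The groups did not overlap, but the log2 difference of -0.25 (SE 0.0963) did not pass the threshold (adjusted p = 0.0816 by limma). Of all genes tested, 20.1% were lower in both lines than in every primary culture and 23.0% were higher. Among the 10 genes, 3 were lower in both lines (Ext2, Extl3 and Hs6st1) and 0 were higher in both. In TPM, Ext2 was within the primary range in both lines, and with library totals it was so in PMC-303. Ext2 overlaps Alx4 on the opposite strand over 20313 bases (and a processed pseudogene), with the same doubt about strand as for Ndst1.

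Of the enzymes that modify the chain after N-sulfation, Glce was within the primary range in both lines, Hs6st1 was below it in both, Hs2st1 was above it in PMC-303 alone and Hs3st1 below it in PMC-306 alone. Glce (ENSMUSG00000032252.15, chromosome 9, 61964527 to 62030067, minus strand), the epimerase that makes iduronic acid, was at 12.7 CPM in PMC-303 and at 9.38 CPM in PMC-306, both within the primary range from 8.52 to 14.4 CPM (median 10.8 CPM). Its log2 difference was 0.03 (95% interval -0.48 to 0.53, adjusted p = 0.940 by limma). Hs2st1 (ENSMUSG00000040151.10, chromosome 3, 144134693 to 144276528, minus strand), which sulfates iduronic acid at position 2 of the ring, was at 135 CPM in PMC-303 and at 71.7 CPM in PMC-306. Its primary cultures ranged from 62.4 to 95.4 CPM with a median of 72.9 CPM, so that PMC-303 alone lay above them. The log2 difference of both lines was 0.38 (SE 0.231, adjusted p = 0.239 by limma). It was 0.84 without PMC-306 and -0.07 without PMC-303.

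Hs6st1 (ENSMUSG00000045216.8, chromosome 1, 36107437 to 36145527, plus strand), a 6-O-sulfotransferase that acts on glucosamine, was lower in the lines. PMC-303 had 163 CPM and PMC-306 had 90.0 CPM, while the primary cultures had a lowest value of 194, a median of 238 and a highest value of 259 CPM. Both lines lay under every primary culture, PMC-306 further than PMC-303. In TPM, PMC-303 at 49.5 TPM was inside the primary range, which began at 45.6 TPM, and PMC-306 at 28.3 TPM was under it. The log2 difference was -0.92 (SE 0.211, adjusted p = 0.0104 by limma). It was -1.35 without PMC-303, whereas without PMC-306 it was -0.49. Against the female or the male cultures alone, with 3 primary libraries, neither Hs6st1 nor Extl3 passed (adjusted p between 0.0629 and 0.0962 by limma).

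Hs3st1 (ENSMUSG00000051022.8, chromosome 5, 39770231 to 39912818, minus strand), which places the 3-O-sulfate of the antithrombin-binding site of heparin, separated the lines from each other. PMC-303 had 81.9 CPM and PMC-306 had 13.5 CPM. The primary cultures had a lowest value of 48.5, a median of 69.0 and a highest value of 105 CPM. PMC-303 was inside this range, and PMC-306 was at 18.3% of the primary mean of 73.5 ± 19.3 CPM (SD, n = 6). With both lines in 1 group the log2 difference of -1.10 (SE 0.568) did not pass (adjusted p = 0.170 by limma). Without PMC-303 it was -2.40 and without PMC-306 it was 0.20. With 1 library per line the difference between the lines has no replicate check.

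**Figure D2:**
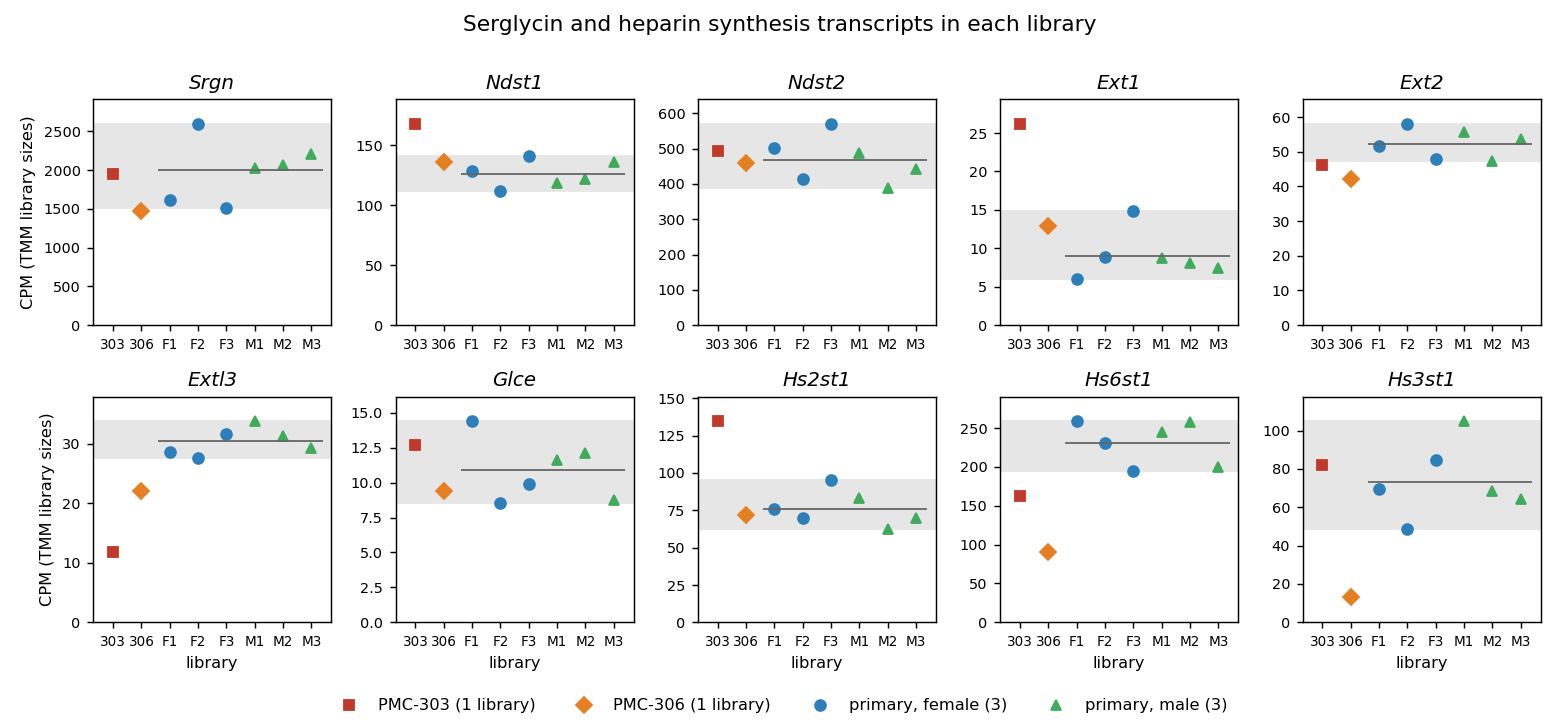
CPM of each gene in each library, with axes starting at 0. The grey band is the range of the 6 primary cultures and the line their mean. PMC-303 and PMC-306 both lie under the band for Ext2, Extl3 and Hs6st1, PMC-303 alone lies over it for Ndst1, Ext1 and Hs2st1, and PMC-306 alone lies under it for Srgn and Hs3st1.

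Counted by line, PMC-303 was above the primary range for 3 of the 10 genes (Ndst1, Ext1 and Hs2st1) and below it for 3 (Ext2, Extl3 and Hs6st1). PMC-306 was above it for 0 and below it for 5, the same 3 with Srgn and Hs3st1. Over all genes tested, PMC-303 was above the range for 33.4% and below it for 30.0%, and PMC-306 for 32.0% and 32.3%. Such positions are a description, as 1 library stands for each line.

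**Figure D3:**
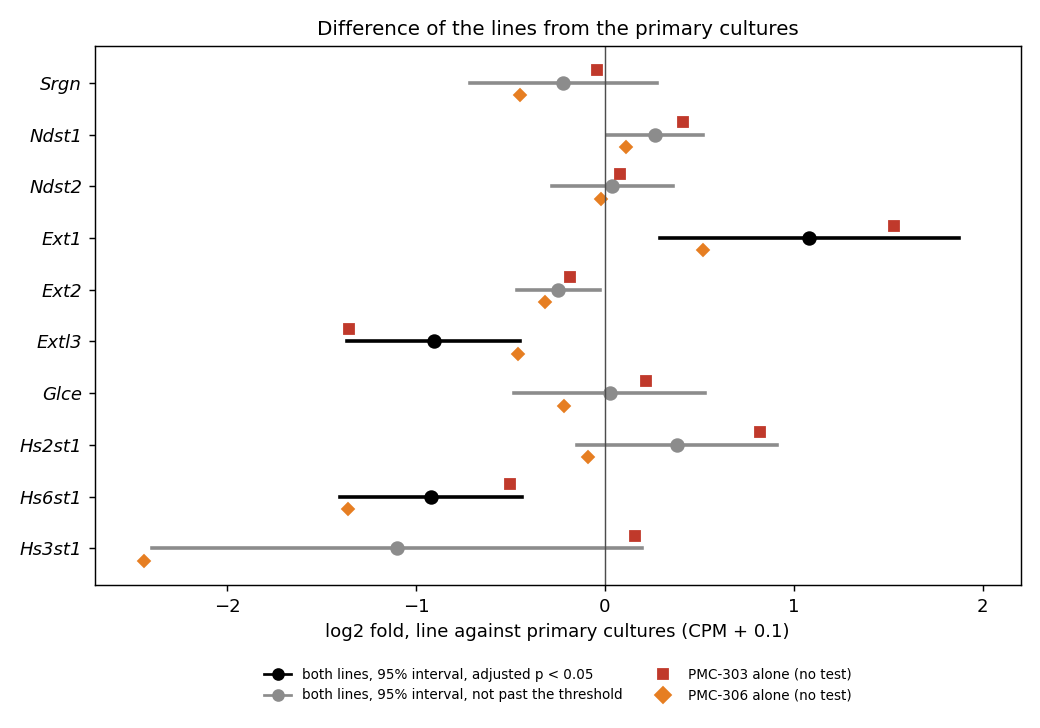
Log2 difference between both lines and the 6 primary cultures with its 95% interval (circles and bars, black where the adjusted p of limma was under 0.05) and of each line against the primary mean (squares for PMC-303, diamonds for PMC-306, no test). Ext1 lies to the right at 1.08, Extl3 and Hs6st1 lie to the left at -0.91 and -0.92, and the lines stand furthest apart for Hs3st1.

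Female and male primary cultures were compared because the cultures came from both sexes. For none of the 10 genes did limma find a difference (adjusted p = 1.00 for each), and 0 of them had an unadjusted p under 0.05. The log2 differences, female minus male, ran from -0.23 for Hs3st1 to 0.20 for Ext1, and the lowest unadjusted p was 0.291, for Ndst2. Of 13710 genes tested, 0.0438% were called, 2 higher and 4 lower in female cultures.

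The genes whose pattern over the 8 libraries was most like that of Srgn were Slco2b1, Gng5 and Lemd2, with Pearson r of 0.99, 0.98 and 0.96 of log2(CPM + 0.1). Those most like Ndst2 were Nedd4 (0.92), Dlst (0.91) and 4930453N24Rik (0.90). They are the highest of 8749 genes whose mean reached 10 CPM, and lines and primary cultures were pooled, so that these values describe the 8 libraries only.

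The rest of the pathway was read from lists of genes for each step. Of 60 tested genes in 6 lists, 8 were higher and 13 lower in the lines, with a median log2 difference of -0.11, where 18.3% of all genes tested were higher and 15.5% lower. The same shares are the background for the count of each list. All of them were tested in the same fit as the 10 genes above. Against the cultures of at least 1 sex alone, with 3 primary libraries, the calls described next were lost for Xylt2, Ndst3, Gfpt2, Slc35d2, Chst15, Chsy1, Csgalnact2, Ids, Arsg and Slc18a2.

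For the linker that joins the chain to serine, 0 of 6 tested genes were higher and 2 were lower, with a median of -0.36. B4galt7, which adds its first galactose, was at 30.6 CPM in PMC-303 and at 35.5 CPM in PMC-306, under the primary range from 46.7 to 63.0 CPM (log2 difference -0.69, SE 0.127, adjusted p = 0.00386 by limma). Xylt2, a xylosyltransferase that starts the linker, fell by 0.37 on the log2 scale (adjusted p = 0.0398 by limma). This call was lost when any 1 of the 6 primary cultures was left out (adjusted p from 0.0537 to 0.0718 by limma). Without PMC-306 the difference was -0.22. The most abundant of the others were the xylose kinase Fam20b, with 162 ± 16.0 CPM in the primary cultures (SD, n = 6) against 205 CPM in PMC-303 and just 110 CPM in PMC-306, and the second xylosyltransferase, Xylt1, with 30.1 ± 10.7 CPM (SD, n = 6) against 17.9 and 20.2 CPM. The log2 difference of Fam20b was -0.55 without PMC-303 and 0.34 without PMC-306. With library totals 1 gene of the list was higher and 1 lower.

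Among other enzymes of heparan sulfate, 0 of 8 tested genes were higher and 2 were lower, with a median of -0.61. Sulf2, an enzyme that removes 6-O-sulfate from finished chains outside the cell, had between 9.80 and 22.8 CPM in the primary cultures, 0.947 CPM in PMC-303 and 1 count (0.0491 CPM) in PMC-306. Its adjusted p was 0.000609 by limma, and its fitted log2 difference of -5.16 depends on the offset added to low values and moved to -3.75 without PMC-306. Ndst3, a further N-sulfotransferase, varied from 25.9 to 104 CPM among the primary cultures and was at 18.5 CPM in PMC-303 and at 9.28 CPM in PMC-306, which lay under all of them (-1.90, SE 0.492, adjusted p = 0.0181 by limma). Without PMC-306 its difference was -1.41. Hs6st2, the second 6-O-sulfotransferase, exceeded Hs6st1 per length in all 6 primary cultures, with a level of 93.2 ± 14.2 TPM (SD, n = 6). In the lines, where Hs6st1 had 49.5 and 28.3 TPM, Hs6st2 had 90.9 TPM in PMC-303 and 102 TPM in PMC-306, inside its primary range from 71.4 to 108 TPM. Extl2, a transferase that acts on the linker, had 12.3 ± 1.54 CPM in the primary cultures (SD, n = 6) against 9.47 and 9.18 CPM, and passed only when female culture 3 was left out (-0.45, adjusted p = 0.0212 by limma). The list then held 4 lower genes.

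The list of precursor supply, which holds the makers and carriers of sugar nucleotides and of active sulfate, had 6 of 17 genes higher and 1 lower, with a median of 0.18. Papss1, which makes the sulfate donor, rose from 42.2 ± 4.37 CPM (SD, n = 6) to 75.8 CPM in PMC-303 and to 107 CPM in PMC-306 (log2 difference 1.10, SE 0.145, adjusted p = 0.000804 by limma). Its relative Papss2 was the more abundant one per length in all 6 cultures, at 320 ± 62.8 TPM against 17.3 ± 2.28 TPM (SD, n = 6), and it had 394 TPM in PMC-303 and 379 TPM in PMC-306 (log2 difference in CPM 0.18, adjusted p = 0.393 by limma). Slc35d2, a Golgi carrier of sugar nucleotides, was higher (0.82, adjusted p = 0.00775 by limma). Gfpt2, which feeds the hexosamine pathway, was scarce, with 1.07 to 2.47 CPM in the primary cultures, 3.14 CPM in PMC-306 and 5.35 times the primary mean in PMC-303. Its log2 difference was 1.59 (adjusted p = 0.0259 by limma), 0.77 without PMC-303 and 2.41 without PMC-306. The sulfate transporter gene Slc26a2 was the 1 lower gene, with 20.3 and 20.5 CPM against 28.7 to 32.5 CPM (-0.56, SE 0.0738, adjusted p = 0.000758 by limma). Gfpt1, the abundant relative of Gfpt2, had 179 ± 12.5 CPM in the primary cultures (SD, n = 6) and 171 and 159 CPM in the lines. In TPM 0 genes of the list were lower, as Slc26a2 did not pass there (-0.49, adjusted p = 0.134 by limma).

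For chondroitin and dermatan sulfate, the other chains that serglycin can carry, 2 of 13 tested genes were higher and 4 lower, with a median of -0.51. Chsy1, a chondroitin synthase, had 510 to 712 CPM in the primary cultures, 325 CPM in PMC-303 but 118 CPM in PMC-306 (-1.63, SE 0.311, adjusted p = 0.00471 by limma). Its difference was -0.90 without PMC-306. Chst15, which makes a highly sulfated chondroitin, was at 116 CPM in PMC-303 and at 9.13 CPM in PMC-306 against 138 to 198 CPM. Its difference of -2.29 passed narrowly (adjusted p = 0.0418 by limma). It did not pass when any 1 of the primary cultures was left out (adjusted p up to 0.0732 by limma). The difference was -0.47 without PMC-306 and -4.12 without PMC-303. Csgalnact2, which starts the chondroitin chain, was lower as well (-0.89, adjusted p = 0.0145 by limma), with a difference of -0.48 without PMC-306. Chpf was close to absent in the primary cultures, at most 0.896 CPM, and had 3.62 CPM in PMC-303 but 11.98 CPM in PMC-306. Its log2 difference was 4.41 (adjusted p = 0.00617 by limma) and 3.56 without PMC-306. Its relative Chpf2 was lower in both lines (-0.52, adjusted p = 0.00150 by limma), a call that was lost in TPM (-0.40, adjusted p = 0.114 by limma). Chst11, which sulfates chondroitin, had 56.0 and 92.9 CPM in the lines and 70.2 ± 13.8 CPM in the primary cultures (SD, n = 6). Besides Chpf, the higher gene was Dse, at a mean under 1 CPM and named here after its values were seen.

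Other core proteins of such chains were few. Of 18 listed, 7 could be tested and 0 passed by limma, while 1 of the 7 had an unadjusted p under 0.05. Cd44, a surface receptor that can carry chains, had 118 ± 15.7 CPM in the primary cultures (SD, n = 6), and 112 and 119 CPM in the lines. Vcan, a large chondroitin sulfate proteoglycan, had 65.0 ± 35.8 CPM (SD, n = 6), 51.0 CPM and 21.9 CPM. Per length the primary cultures had 33.5 ± 5.18 TPM of Cd44 and 8.23 ± 3.81 TPM of Vcan (SD, n = 6), far under the level of Srgn.

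Genes of lysosomal degradation were lower in 4 of 9 tested cases and higher in 0, with a median of -0.49. Idua, the iduronidase, was at 14.04 CPM in PMC-303 and at 16.4 CPM in PMC-306 against 25.3 to 30.0 CPM (-0.86, SE 0.0944, adjusted p = 0.000333 by limma). Sumf1, which activates sulfatases, fell by 0.70 on the log2 scale (adjusted p = 0.00220 by limma). Arsg, a glucosamine 3-O-sulfatase at 3.47 to 4.69 CPM in the primary cultures, fell by 0.96 (adjusted p = 0.00635 by limma). Ids, the iduronate sulfatase, had 174 CPM in PMC-303, inside the primary range from 168 to 301 CPM, and 59.1 CPM in PMC-306. Its difference was -1.34 (adjusted p = 0.0253 by limma), -0.56 without PMC-306 and -2.12 without PMC-303. Gusb, the glucuronidase, had 118 and 147 CPM in the lines against 122 ± 10.9 CPM (SD, n = 6). Hgsnat, a lysosomal acetyltransferase of heparan sulfate breakdown, had 58.9 and 72.2 CPM in the lines against 61.3 ± 5.13 CPM (SD, n = 6). In TPM, 2 of the list were lower, since Idua (adjusted p = 0.0722) and Ids (0.0632) did not pass there by limma. Heparanase (Hpse), which cuts heparan chains, did not pass the filter on low counts, with at most 1 count in any library, and is named here after its values were seen.

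**Figure D4:**
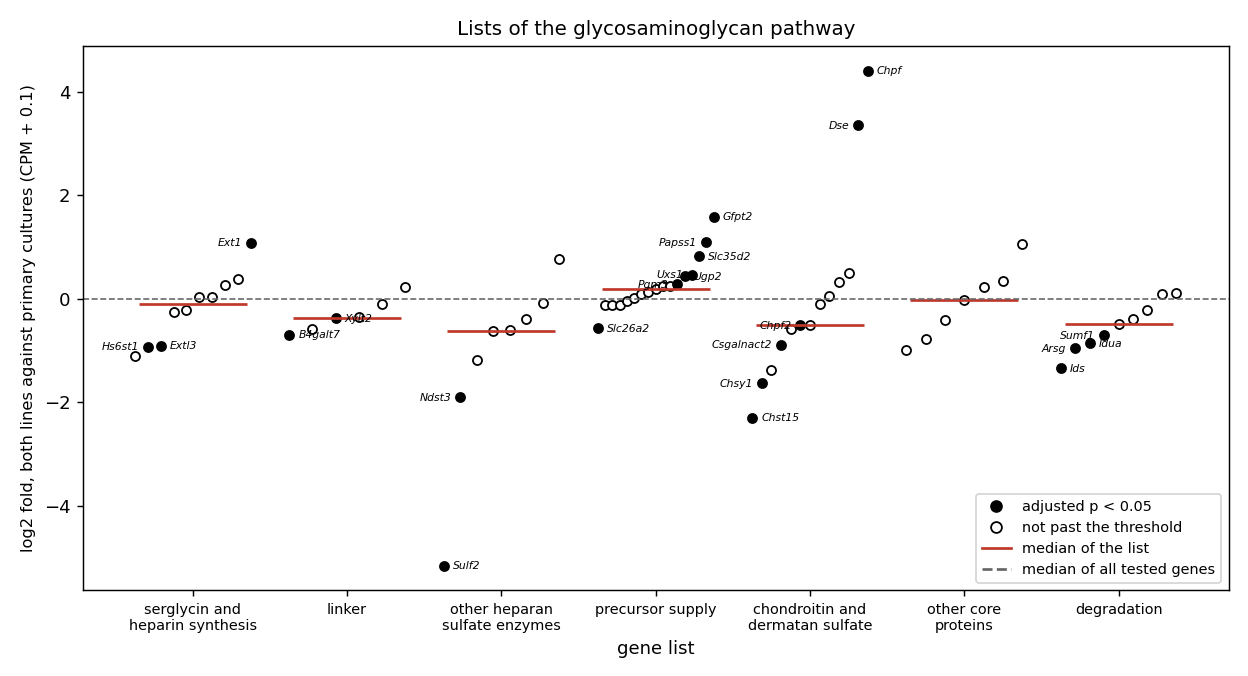
Log2 difference of both lines from the primary cultures for each tested gene of 7 lists. Filled points had an adjusted p under 0.05 by limma and carry their names, red lines are list medians and the dashed line is the median of all genes tested (-0.01). The medians run from -0.61 for other heparan sulfate enzymes to 0.18 for precursor supply.

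Genes of granule proteases and of the supply and loading of histamine were read beside Srgn. Of 7 genes listed (Cpa3, Cma1, Mcpt4, Tpsb2, Tpsab1, Hdc and Slc18a2), 4 were lower in the lines and 0 higher. Over all genes tested, 15.5% were lower and 18.3% higher. The 4 were the proteases Mcpt4, Tpsb2 and Tpsab1 and the monoamine transporter Slc18a2, named here after their values were seen. The other 3 did not pass by limma, Cpa3 at -0.31 (adjusted p = 0.494), Cma1 at -0.36 (adjusted p = 0.340) and Hdc at 1.02 (adjusted p = 0.237). Slc18a2, which loads histamine into granules, was at 934 CPM in PMC-303 and at 454 CPM in PMC-306 against 1117 to 1606 CPM (-1.12, adjusted p = 0.00928 by limma). Without PMC-306 its difference was -0.60.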

How the data were processed

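RNA of 8 PMC cultures was sequenced from stranded total RNA libraries. According to the study's methods and the submitters' processing notes, the authors trimmed reads with Trim Galore 0.6.7, aligned them to GRCm39 with STAR 2.7.9a and estimated gene and transcript counts with Salmon 1.5.2. Of genes and of transcripts, estimated counts without normalization were deposited by the authors, together with gene TPM, which is scaled for length and depth. A spreadsheet had rewritten 3.37% of gene counts, 3.22% of transcript counts and 20.8% of TPM values, 13 of them counts of the 10 genes, and these were set back to numbers. The decimal point of 5253 TPM cells, 6 of them of the 10 genes, was placed to fit the counts. Of all gene counts after restoration, 99.7% were within 0.2 of their transcript sums. Because of the rewritten cells the tables were not treated as count tables, and no count model was used.

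CPM used TMM library sizes. Genes with a count of about 10 in 2 libraries (3 for the sexes) and 15 in all were tested with limma 3.58.1 in R 4.3.3 on log2(CPM + 0.1), fitting the trend of variance with level, with an adjusted p threshold of 0.05 and Benjamini-Hochberg adjustment over all genes tested. Folds on this scale understate changes of low genes. The tests were also run on simulated data with planted changes of a single size, in which the lines varied like the primary cultures. Such a check does not cover smaller changes or lines that vary more. The ratio of Ndst2 to Ndst1 was tested with an exact permutation test. Within a sex no batch is given by the labels.

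The members and lists were chosen with earlier results of these data known, and 1 listed gene is not reported here and enters no count of its list. Besides the members, at most 4 called genes per list with a mean of at least 1 CPM and at most 2 further genes of highest mean are named, and the 3 genes most similar to Srgn and to Ndst2. Alternatives were other scalings, filters and offsets, voom, TPM, transcript sums, subsets of cultures and leaving out each library. Coordinates come from GENCODE release M39, in which 98.9% of gene identifiers were found. Python 3.11.15 was used for all other steps. Samples were mapped from their labels, and 0 columns were left without a sample.

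Precision at this depth: 3 counts are 0.123 to 0.187 CPM, for counting error only.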

Additional observations from a re-analysis of the deposited data

Results flagged for a closer look

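Among 11 measures (the 10 genes and the ratio of Ndst2 to Ndst1), 1 had a primary culture far from the other 5. Ext1 had 14.9 CPM in female culture 3, next to 8.92 CPM in the second highest culture, a gap of 0.672 of the whole range, above the critical value of 0.625 for 6 samples. Chance flags about 1 in 20 groups, which is 0.55 of 11. Without this culture the log2 difference of Ext1 was 1.24 (adjusted p = 0.0135 by limma).

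For 2 genes the lines moved in opposite directions from the primary mean with at least 1 line outside the primary range. Hs2st1 was at 0.82 in PMC-303 and -0.088 in PMC-306 on the log2 scale. Hs3st1 was at 0.16 in PMC-303 and -2.44 in PMC-306. With 1 library per line these differences between the lines were not tested.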

How the results depend on the processing

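Each line is 1 library, so that calls that need both rest on 2 cultures, and with medium confounded no scaling can separate the groups further. A member had at least 129 restored counts in each library.

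Members called higher (1) and lower (2) became 2 higher with library totals, 0 higher with no filter, 0 higher with sex as a term, 1 lower in TPM, and 0 higher and 0 lower against female or male cultures alone. Leaving out 1 library gave 0 to 3 higher and 1 to 3 lower. All calls (2665 higher, 2255 lower) became 2374 and 979 in TPM, 1629 and 1460 without genes that had a rewritten cell (10327 genes tested), 1327 and 833 against female and 1792 and 1241 against male cultures. The share of calls that were higher was 54.2%, and 67.2% with library totals and 70.8% in TPM, where the median of all genes was 0.10 and 0.13. Leaving out each primary culture gave 2335 to 2570 higher and 1893 to 2095 lower.

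By position, PMC-306 was above the range for 1 member with library totals and 0 to 2 when a primary culture was left out, and in TPM PMC-303 was below it for 1 and PMC-306 for 2. These settings were chosen after seeing the data.

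Signs changed only for genes that passed neither in the main fit nor in the setting that changed the sign. For Hs2st1, Hs3st1 and Fam20b, the end of the range below furthest from 0 came from a fit without 1 line. With library totals Fam20b was at 0.0053, Hs6st2 at 0.032 and Cd44 at 0.0905, and in TPM they were at 0.027, 0.063 and 0.0913. Ndst2 was at -0.042 against female and Cd44 at 0.075 against male cultures. Leaving out 1 library gave -0.011 to 0.10 for Ndst2, -0.19 to 0.24 for Glce, -0.074 to 0.84 for Hs2st1, -2.40 to 0.20 for Hs3st1, -0.55 to 0.34 for Fam20b, -0.30 to 0.43 for Chst11, -0.083 to 0.028 for Cd44, -0.048 to 0.27 for Gusb and -0.051 to 0.24 for Hgsnat. The causes were not tested.

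The ratio difference stayed between -0.33 and -0.13 when 1 library was left out and was -0.23 in TPM.

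The replicate block gave 1 gene higher and 4 lower in female cultures. Same-numbered cultures correlated in their deviations by 0.40, -0.22 and 0.28, and not every culture correlated best with its own number. Deviations from a mean of so few cultures depend on each other. These values therefore cannot decide whether same-numbered cultures share more than a number. Library totals gave 1 higher, and leaving out 1 culture gave 1 higher and 0 to 5 lower.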
